A study of Mus musculus with 10 samples.

Results

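The 9 genes described here make or respond to nitric oxide (NO) or endothelin, the gas and the peptide by which endothelium sets the tone of the vessel wall. They are Nos3, Ddah1, Ddah2, Gucy1a1, Gucy1b1, Pde5a, Edn1, Ece1 and Ednrb. The genes were chosen by name, with earlier results of these data known. They are 9 of the 46517 Ensembl genes in the count tables, and all 9 were found there. Counts of these genes and of pathway genes called are therefore descriptive where they are set beside all genes. Single endothelial cells had been sorted by Podoplanin and CD31 from the ear skin of 5-wk-old mice into 384-well plates and sequenced by Smart-Seq2, which reads along the whole transcript. The mutant group held 5 Cre-positive Pik3caH1047R;Cdh5-CreERT2 mice that had received 4-hydroxytamoxifen (4-OHT) on the ear at 3 wk. Cdh5-CreERT2 is active in lymphatic and blood endothelium alike, so cells of both classes could carry the activated p110α. The controls were an untreated C57BL/6J mouse (control 1) and a mouse of the mutant strain that lacked Cre and was given 4-OHT (control 2), and 1 more control was not analysed here. Plate numbers fall into a lower series (mutants 1–4) and a higher one (mutant 5 and both controls), so genotype and plate series cannot be told apart for 4 of the 5 mutants. Expression of the transgene itself was not checked here.

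In endothelium, NO synthase 3 (Nos3) makes NO from arginine, and the dimethylarginine hydrolases Ddah1 and Ddah2 break down methylated arginines that inhibit the enzyme. NO acts on soluble guanylate cyclase, a pair of an α subunit (Gucy1a1) and a β subunit (Gucy1b1), which makes cGMP until phosphodiesterases such as Pde5a degrade it. Endothelin 1 (Edn1) is released as a precursor, cut to its active form by endothelin-converting enzyme 1 (Ece1), and binds receptors of which the type B receptor (Ednrb) is the one known from endothelium, where it is linked to NO release. In the collecting vessels of the lymphatic system NO and the contraction of the surrounding muscle are known to be coupled.

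Of 3456 wells 3248 passed the limits on genes, reads and mitochondrial share, and the 9 plates held 99738886–151102969 reads in genes. LECs were cells with at least 300 CPM (reads of a gene scaled by the total of gene reads) summed over Prox1, Flt4 and Mmrn1 that also exceeded the sum over the BEC genes Flt1, Emcn and Podxl, and cells with the larger BEC sum were BECs. There were 1641 LECs, 175–367 in each mouse, and 1542 BECs, 163–340 in each mouse. The gate genes separated the classes as read from the sums (LEC genes at 3381–6026 CPM in LECs and 81.1–214 CPM in BECs), which is a property of the rule. Collecting LECs were those with more Mmrn2 than Lyve1, 189 cells with 13–41 in each mouse. All levels below are CPM of the reads summed over the cells of a class in 1 mouse, so fewer expressing cells and less RNA in each cell cannot be told apart.

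Counted per kilobase of exon, to allow the genes to be set beside each other, Ece1 had the highest level and Pde5a the lowest in both classes. In LECs the order was Ece1 (365 ± 35.4 CPM per kb, SD, n = 7 mice), Ddah2 (95.9 ± 26.8), Nos3 (47.1 ± 14.3), Gucy1a1 (30.0 ± 13.0), Gucy1b1 (28.1 ± 12.4), Ednrb (19.0 ± 7.75), Ddah1 (14.98 ± 3.09), Edn1 (2.32 ± 1.30) and Pde5a (0.0191 ± 0.0134). The ranges over mice of Ddah2 and Nos3, of Nos3 and Gucy1a1, of both cyclase subunits, of Gucy1b1 and Ednrb, and of Ednrb and Ddah1 overlapped, while Ece1, Edn1 and Pde5a stood clear of their neighbours. In BECs the order was Ece1 (225 ± 38.9 CPM per kb), Ddah2 (101 ± 16.9), Nos3 (87.0 ± 11.3), Edn1 (57.6 ± 20.2), Ednrb (22.8 ± 6.09), Ddah1 (22.5 ± 10.4), Gucy1a1 (7.01 ± 1.98), Gucy1b1 (2.94 ± 1.63) and Pde5a (0.229 ± 0.198). Here Edn1 had moved up to 4th place and both cyclase subunits down to the places just above Pde5a. Neighbours overlapped between mice from Ddah2 to Edn1 and from Ednrb to Gucy1b1.

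**Figure D1:**
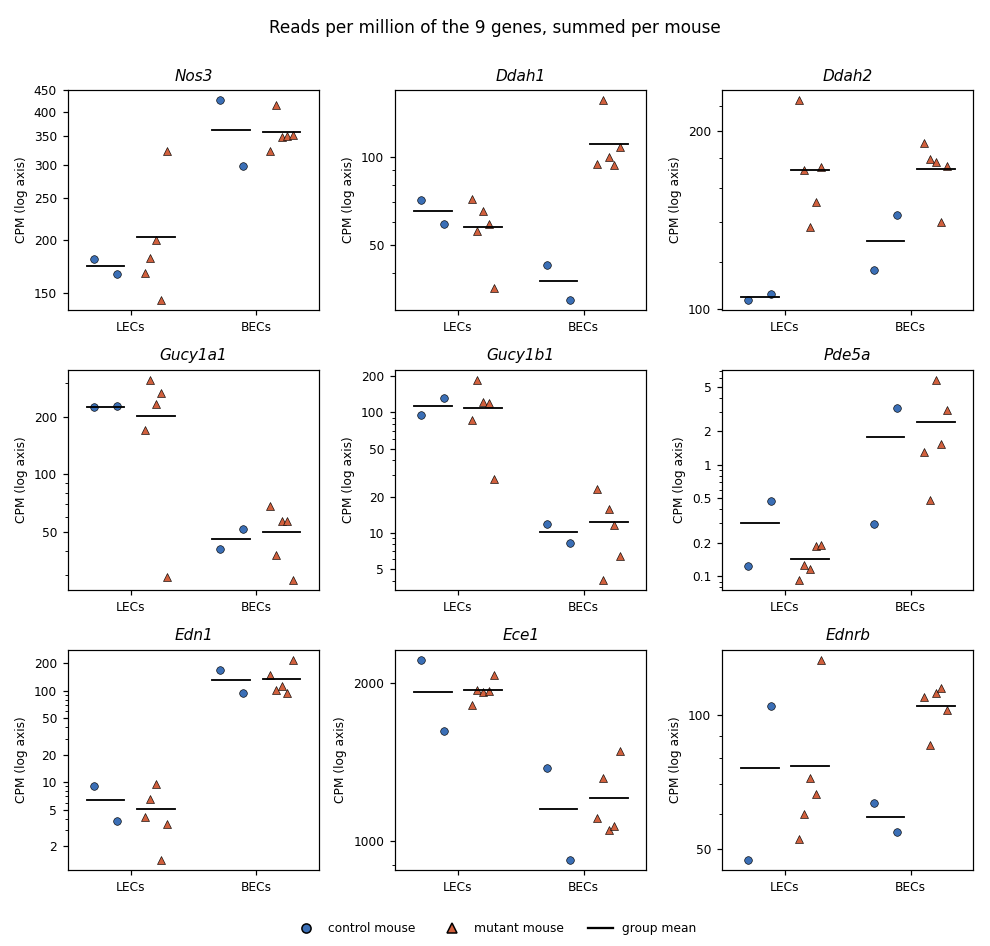
Levels of the 9 genes (CPM, log axis) in the LEC and BEC sums of each mouse, circles for the 2 control and triangles for the 5 mutant mice, with a line at each group mean. Edn1 lies at 1.41–9.62 CPM in LECs and 93.8–221 CPM in BECs, and Gucy1b1 at 27.9–187 CPM in LECs and 4.04–23.2 CPM in BECs.

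Blood and lymphatic endothelium of the same mice differed in 6 of the 9 genes. Nos3, Edn1 and Pde5a were higher in BECs, and Gucy1a1, Gucy1b1 and Ece1 were higher in LECs, each in 7 of 7 mice. The comparison was an edgeR quasi-likelihood test on the sums with the mouse as a block, with the threshold set at 0.05 for p-values adjusted by Benjamini-Hochberg over all genes tested. Of the 22000 genes tested 22.0% were called, 10.2% higher and 11.9% lower in BECs. No call for Nos3, Edn1, Gucy1a1, Gucy1b1 or Ece1 was lost in 15 alternatives, and that for Pde5a was lost in 1.

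For Nos3 (ENSMUSG00000028978, chr5:24364810-24384474) the LEC sums held 180.2 and 166 CPM in controls 1 and 2 and 167, 181, 199.9, 144 and 323 CPM in mutants 1–5. The BEC sums held 427 and 299 CPM in the controls and 323, 416, 349, 350.0 and 353 CPM in the mutants. Only the LECs of mutant 5 came up to the range of the BECs. The log2 difference, BECs over LECs, was 0.91 ± 0.14 (SE, adjusted p = 0.00147). With every cell thinned to 50000 reads, 76.3 ± 7.66% of BECs and 58.2 ± 10.8% of LECs had a Nos3 read (SD, n = 7 mice), against 92.0% and 85.8% before thinning. Of the exon bases of Nos3, 32.3% are shared with Atg9b or Gm15587. How reads in these bases were assigned is not known, so the Nos3 count may be too high or too low.

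Both Ddah genes, Ddah1 on chromosome 3 and Ddah2 (ENSMUSG00000007039) at chr17:35059035-35062095, were at like levels in LECs and BECs taken over all mice, with differences of 0.44 ± 0.32 for Ddah1 (adjusted p = 0.399) and 0.08 ± 0.09 for Ddah2 (adjusted p = 0.629). For Ddah1 this mean joined a lower BEC level in both control mice and a higher one in all 5 mutants, as described below.

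The cyclase genes lie side by side on the minus strand of chromosome 3, Gucy1b1 (ENSMUSG00000028005) at chr3:82032006-82074689 and Gucy1a1 (ENSMUSG00000033910) at chr3:82092427-82145789 of GRCm38, 17737 bases apart, and both were lower in BECs. Gucy1a1 in LECs was at 225 and 227 CPM in the controls and 170.3, 312, 233, 267 and 29.1 CPM in mutants 1–5, and Gucy1b1 at 95.9 and 132 CPM in the controls and 86.4, 187, 123, 120.3 and 27.9 CPM in the mutants. The LECs of mutant 5 stood far below the other 6 mice for both subunits. In BECs, Gucy1a1 was at 40.6 and 51.7 CPM in the controls and 68.5, 38.1, 57.3, 57.3 and 28.2 CPM in the mutants, and Gucy1b1 at 11.8 and 8.25 CPM and at 23.2, 4.04, 15.6, 11.6 and 6.37 CPM. With the LECs of mutant 5 aside, no BEC sum reached the lowest LEC sum. The log2 differences, BECs over LECs, were -1.93 ± 0.32 for Gucy1a1 (adjusted p = 0.00256) and -3.25 ± 0.42 for Gucy1b1 (adjusted p = 0.00062).

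Cell by cell, after thinning, Gucy1a1 was read in 46.5 ± 15.5% of LECs and 22.1 ± 8.78% of BECs, and Gucy1b1 in 46.0 ± 12.2% and 9.52 ± 3.65%. The unthinned shares were 71.0% and 46.2% for Gucy1a1 and 64.8% and 25.6% for Gucy1b1. Among LECs with a Gucy1a1 read, 57.7% also had a Gucy1b1 read, against 35.9% of the LECs without one (means of 7 mice). The same shares in BECs were 18.2% and 7.08%. Mural cells also express this cyclase, and the 5 mural markers summed to 67.4–104 CPM in the LECs of controls and 4.12–21.8 CPM in those of mutants, and to 303–606 and 7.76–250.1 CPM in BECs. Without cells richer in markers of another cell type the BECs held Gucy1a1 at 16.7–35.0 CPM in controls and 10.2–56.2 CPM in mutants, with log2 differences from LECs of -2.59 for Gucy1a1 (edgeR adjusted p = 0.000125) and -4.24 for Gucy1b1 (adjusted p = 1.55e-05).

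Pde5a (ENSMUSG00000053965, chr3:122728947-122859374) was near the lower end of what the sums could show, with 0.125 and 0.474 CPM in the LECs of the controls and 0.0929, 0.126, 0.117, 0.187 and 0.190 CPM in those of the mutants. In BECs it was at 0.295 and 3.24 CPM in the controls and 1.31, 0.485, 5.80, 1.54 and 3.09 CPM in the mutants. The BEC range began below the LEC level of control 2, although each mouse had more Pde5a in its own BECs. The log2 difference was 3.18 ± 0.62 (adjusted p = 0.00592), and 2.15 (adjusted p = 0.046) without cells in which markers of another cell type outweighed the gate genes. With only the first plate of mutants 3 and 5 the call was lost (adjusted p = 0.0589). A read of Pde5a was found in 1.10 ± 0.697% of thinned LECs and 2.84 ± 1.19% of thinned BECs.

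Edn1 (ENSMUSG00000021367, chr13:42301476-42307990) showed the largest difference of the 9 genes. Its LEC sums held 9.05 and 3.76 CPM in the controls and 4.21, 6.49, 9.62, 1.41 and 3.49 CPM in the mutants, and its BEC sums 168 and 95.8 CPM and 150.0, 103, 113, 93.8 and 221 CPM. Every BEC sum was above every LEC sum. The log2 difference was 4.77 ± 0.37 (adjusted p = 3.09e-05), and an Edn1 read was found in 34.5 ± 9.96% of thinned BECs and 8.80 ± 3.54% of thinned LECs.

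Ece1 (ENSMUSG00000057530, chr4:137862237-137965229), which processes the Edn1 precursor, went the other way. It was read at 2219 and 1622 CPM in the LECs of the controls and 1820.4, 1945, 1926, 1934 and 2076 CPM in those of the mutants, against 1378 and 922 CPM and 1108, 1322, 1049, 1069 and 1488 CPM in BECs. Every LEC sum was above every BEC sum. The log2 difference was -0.73 ± 0.06 (adjusted p = 5.09e-05), with an Ece1 read in almost every thinned cell of both classes (98.8 ± 1.42% of BECs).

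For Ednrb no difference between the classes was called (0.29 ± 0.24, adjusted p = 0.453). The ligand was therefore read mainly in BECs, the enzyme more in LECs, and the receptor at overlapping levels in both.

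Of the other genes of these pathways, 8 of 21 tested genes of NO synthesis and its regulation differed between BECs and LECs (5 higher and 3 lower in BECs), as did 9 of 18 genes of cGMP turnover (5 and 4) and 6 of 10 genes of endothelin processing and signalling (6 and 0), beside 22.0% of all genes tested (10.2% higher and 11.9% lower). In the NO list the 3 lowest adjusted p-values belonged to Cav1, which binds and restrains Nos3 in caveolae (log2 difference 0.84), to Nostrin, a Nos3 trafficking protein (4.56), and to Gchfr, the regulator of the enzyme that starts synthesis of the cofactor tetrahydrobiopterin (-2.97). In the cGMP list they belonged to Npr1, the natriuretic peptide receptor that is itself a guanylate cyclase (1.30), to Pde3b, a phosphodiesterase (-4.27), and to Vasp, a target of cGMP-dependent kinase (1.00). In the endothelin list they belonged to Mme, a peptidase that degrades endothelin (6.47), and to the proprotein convertases Pcsk7 (0.84) and Pcsk5 (1.76). The medians of the 3 lists were -0.04, 0.50 and 0.45, beside -0.02 over all genes tested.

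For Edn1 and Gucy1b1, which had the largest differences in each direction between the classes, and for Ednrb, which was called between genotypes and vessel zones, the 250 bases before the RefSeq start (GRCm38.p6) are shown 5′ to 3′ on the strand of the gene, because none of them overlaps an annotated exon. The Ednrb stretch lies inside the annotated span of its gene, while those of Gucy1b1 and Edn1 lie before theirs. Capitals mark letters that match a searched motif on either strand.
Gucy1b1, chr3:82074712-82074961, minus strand: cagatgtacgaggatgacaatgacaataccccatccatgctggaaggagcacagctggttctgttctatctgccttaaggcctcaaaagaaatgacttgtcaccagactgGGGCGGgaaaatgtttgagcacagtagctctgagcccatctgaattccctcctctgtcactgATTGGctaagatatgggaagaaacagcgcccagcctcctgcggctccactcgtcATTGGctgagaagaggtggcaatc
Edn1, chr13:42301226-42301475, plus strand: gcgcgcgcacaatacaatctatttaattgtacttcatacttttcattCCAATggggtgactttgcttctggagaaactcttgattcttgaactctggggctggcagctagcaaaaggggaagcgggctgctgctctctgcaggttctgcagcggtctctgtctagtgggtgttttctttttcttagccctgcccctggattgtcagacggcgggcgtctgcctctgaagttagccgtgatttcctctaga
Ednrb, chr14:103843702-103843951, minus strand: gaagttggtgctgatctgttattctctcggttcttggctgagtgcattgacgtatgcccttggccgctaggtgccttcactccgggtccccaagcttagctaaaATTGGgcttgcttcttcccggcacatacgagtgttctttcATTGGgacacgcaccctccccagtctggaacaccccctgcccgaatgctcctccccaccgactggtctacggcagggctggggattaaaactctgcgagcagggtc
Each motif was sought on both strands, with its share among the 32536 distinct stretches of this length in the table. The AP-1 motif was written as TGANTCA and found in 6.73% of them. The motif of GATA factors was written as AGATAA and found in 9.97%. For Sp1 the letters were GGGCGG, found in 33.0%. The CCAAT box was found in 33.8%. For the TATA box the letters were TATAAA, found in 12.3%. The core of the hypoxia element, written as ACGTG, was found in 16.7%. The Gucy1b1 stretch held 1 match for Sp1, which began 140 bases before the start, and 2 CCAAT boxes on the opposite strand. The Edn1 stretch held 1 CCAAT box, which began 203 bases before the start, and the Ednrb stretch 2 on the opposite strand. A match is a run of letters and not a bound site, and no match says only that these letters are not in this window. The table held a start for 8 of the 9 genes and none for Nos3.

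The comparison of mutant with control mice asked what differed between the groups in each class. Besides the transgene, the groups differ in the untreated control 1 and in plate series, as described above. In BECs 2 of the 9 genes rose in mutants, Ddah1 2.93-fold and Ednrb 1.78-fold as ratios of group means, and none fell, where 1.87% of 19478 genes were called and 1.36% were called higher. In LECs none of the 9 was called, where 2.76% of 19758 genes were called.

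Ddah1 (ENSMUSG00000028194, chr3:145758675-145894277) was read in BECs at 42.8 CPM in control 1 and 32.5 CPM in control 2, and at 94.4, 156, 99.7, 93.3 and 108 CPM in mutants 1–5. The groups did not overlap, and the lowest mutant was above the higher control by more than the difference between the controls. Groups of 5 and 2 mice can separate by chance, and the share of all genes that did so, here and below, is not given. The log2 fold change was 1.62 ± 0.28 (SE, edgeR adjusted p = 0.0354). A Ddah1 read was found in 36.7 ± 7.52% of thinned mutant BECs (n = 5) and 14.4 ± 3.09% of thinned control BECs (n = 2), against 53.1% and 39.2% unthinned. The size of the change was 1.23 to 1.87 in 17 of the 19 alternatives, and the call was kept in 10 of 19. It was lost when any 1 of mutants 1, 3 and 4 was left out (edgeR adjusted p = 0.0629, 0.0688 and 0.0513) and with cells thinned (0.0652). The call was also lost when control 1 or control 2 was left out. With the plate series as a covariate it was lost too (log2 fold change 1.56), in a fit that rests on mutant 5 against the 2 controls.

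The make-up of the BECs moved with genotype, as described for the vessel zones below. Venous-marker cells made up 14.6–23.9% of BECs in controls and 39.4–53.5% in mutants, and Ddah1 was higher in venous-marker cells. Within capillary-marker BECs alone, an alternative chosen after seeing the data, Ddah1 was at 23.9 and 23.0 CPM in the controls and 73.5, 121, 91.3, 74.9 and 96.6 CPM in the mutants. The ratio of means there was 3.90-fold, and the log2 fold change 1.99 (adjusted p = 0.0377). Within venous-marker BECs it was 108 and 82.1 CPM in the controls and 100.5, 199.7, 118, 122 and 136 CPM in the mutants, and the groups overlapped (log2 fold change 0.55, adjusted p = 0.321). They did not without cells richer in markers of another cell type, with controls at 89.0–98.8 CPM and mutants at 101.9–199.7 CPM.

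Ednrb (ENSMUSG00000022122, chr14:103814625-103844402) was read in BECs at 63.5 and 54.6 CPM in the controls and at 110.1, 85.9, 112, 115 and 103 CPM in mutants 1–5. All 5 mutants were above both controls. The log2 fold change was 0.89 ± 0.17 (edgeR adjusted p = 0.0463), just inside the threshold, and only 2 of 19 alternatives kept the call. It was lost whenever any 1 mouse was left out, and without cells richer in markers of another type (log2 fold change 0.70, edgeR adjusted p = 0.101). The call was also lost with the plate series as a covariate (0.84), in a fit that rests on mutant 5 against the 2 controls. In capillary-marker BECs alone Ednrb was at 93.6 and 72.3 CPM in the controls and 251, 148, 184, 171 and 148 CPM in the mutants, again without overlap (2.18-fold as the ratio of means, log2 fold change 1.15, adjusted p = 0.135). In venous-marker BECs it was at 12.7 and 1.19 CPM in the controls and 24.6, 12.2, 54.6, 64.3 and 52.2 CPM in the mutants, where mutant 2 lay below control 1. With cells richer in markers of another cell type left out, the controls were at 2.41 and 1.29 CPM and the mutants at 12.2–65.7 CPM, and the groups did not overlap.

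Markers of other cells in the BEC sums moved with genotype too. The 5 fibroblast genes summed to 570–769 CPM in the BECs of controls and 12.8–53.8 CPM in those of mutants, and none of the 5 was at 0 in any mouse. Without cells richer in such markers the Ddah1 change was 1.49 (adjusted p = 0.027), near its value with all cells, and the fibroblast genes were then at 85.3–118 and 3.55–20.4 CPM. The 7 cycling genes rose in the mutant sums to 76.3–395 CPM from 7.64–32.5 CPM, and without cycling cells the Ddah1 change was 1.64 (adjusted p = 0.0431) and the Ednrb change 0.85 (adjusted p = 0.0561).

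Ddah2, the partner of Ddah1, was the gene with the lowest adjusted p in LECs. It was read at 103 and 106 CPM in the controls and at 226, 172, 138, 151 and 174 CPM in mutants 1–5. The groups did not overlap, with a ratio of means of 1.64. The log2 fold change of 0.76 ± 0.19 missed the threshold in edgeR (adjusted p = 0.0746) and passed it in DESeq2 (adjusted p = 0.00593), and over the other alternatives the adjusted p ran up to 0.354. The share of thinned LECs with a Ddah2 read was 57.5 ± 6.57% in mutants and 34.9 ± 1.66% in controls, against 78.4% and 64.6% unthinned. Cycling cells made up 0.546% and 2.29% of LECs in controls 1 and 2 and 10.4–26.6% in mutants. The fit without cycling cells did not call Ddah2 either, and the part of other shifts in the make-up of LECs was not tested. In BECs Ddah2 was at 116 and 144 CPM in the controls and 190.4, 179, 177, 140.1 and 175 CPM in the mutants, where mutant 4 lay below control 2, and the log2 fold change was 0.47 ± 0.18 (adjusted p = 0.205). Without cells richer in markers of another cell type the BECs of mutants (153–196 CPM) and controls (118–148 CPM) did not overlap.

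For the other genes the spread between mice was larger than, or close to, the difference between genotypes. Nos3 differed by 0.27 ± 0.29 in LECs (adjusted p = 0.651) and by 0.04 ± 0.18 in BECs (adjusted p = 0.929). The cyclase subunits differed by -0.11 ± 0.67 (Gucy1a1) and -0.00 ± 0.56 (Gucy1b1) in LECs and by 0.17 ± 0.34 and 0.33 ± 0.66 in BECs, with adjusted p-values of 0.82 and above. In 1 of the 17 alternatives for LECs, with the plate series as a covariate, Gucy1a1 was called lower in mutants (-2.90 ± 0.40, edgeR adjusted p = 0.0327), and Gucy1b1 was then at -1.97 ± 0.48 (adjusted p = 0.156). Pde5a differed by -0.99 ± 0.81 in LECs (adjusted p = 0.534) and 0.54 ± 1.16 in BECs (adjusted p = 0.835). Edn1 differed by -0.31 ± 0.72 in LECs (adjusted p = 0.849) and 0.10 ± 0.36 in BECs (adjusted p = 0.911). Ece1, with the smallest errors of these, differed by 0.05 ± 0.14 in LECs (adjusted p = 0.869) and 0.13 ± 0.20 in BECs (adjusted p = 0.775). The errors were widest for Pde5a in both classes, for the cyclase genes and Edn1 in LECs, and for Gucy1b1 in BECs. These errors leave room for changes of the size seen for Ednrb.

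In LECs Ednrb was at 47.2 and 105 CPM in the controls and 52.7, 59.9, 72.4, 66.4 and 134 CPM in the mutants, and Ddah1 at 71.3 and 58.8 CPM and at 71.9, 55.7, 65.2, 59.0 and 35.7 CPM. Both genes overlapped between the genotypes (Ednrb 0.08 ± 0.41, adjusted p = 0.935, and Ddah1 -0.14 ± 0.27, adjusted p = 0.821). Whether the effect in LECs differed from that in BECs was tested as an interaction, in which 0.182% of 22000 genes and none of the 9 were called. For Ddah1 the LEC effect minus the BEC effect was -1.78 ± 0.36 (edgeR adjusted p = 0.129, DESeq2 adjusted p = 0.000407), and for Ednrb it was -0.82 ± 0.47 (edgeR adjusted p = 0.587). The genotype effect is thus not shown by edgeR to be particular to BECs for either gene. The same differences were 0.13 ± 0.31 for Nos3, 0.25 ± 0.19 for Ddah2, -0.59 ± 0.68 for Gucy1a1 and -0.43 ± 0.89 for Gucy1b1. They were -1.69 ± 1.19 for Pde5a, -0.53 ± 0.71 for Edn1 and -0.09 ± 0.13 for Ece1, and these 7 genes had edgeR adjusted p-values of 0.690 to 0.961.

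**Figure D2:**
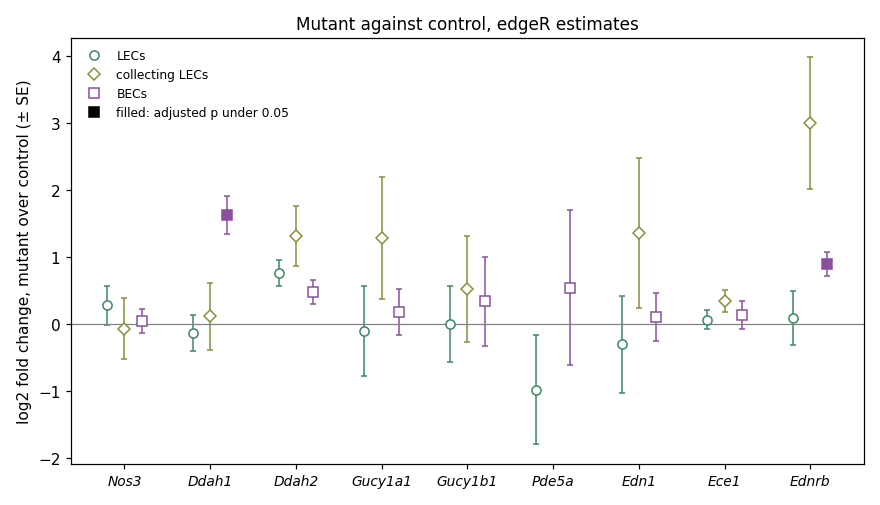
Log2 fold change of each gene, mutant over control, with its SE as error bar (edgeR), in LECs (circles), collecting LECs (diamonds, described below) and BECs (squares), filled where the adjusted p is under 0.05. Ddah1 and Ednrb in BECs are the filled points, at 1.62 and 0.89, and Pde5a has no point for collecting LECs, where it was not tested.

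Among the other pathway genes, none of 20 NO, 17 cGMP and 9 endothelin genes tested in LECs was called between genotypes, beside 2.76% of all genes tested. In BECs 1 of 21 NO genes and 1 of 17 cGMP genes rose in mutants, and none of 8 endothelin genes was called, beside 1.87% of all genes tested. The NO gene was Cyb5r3, a reductase that in endothelium controls NO diffusion through haemoglobin α, higher by 0.80 on the log2 scale (adjusted p = 0.0478). In LECs Cyb5r3 was at 1616 and 2227 CPM in controls and 1332–1652 CPM in mutants, and the interaction for this gene was called (-1.12, adjusted p = 0.0300). The cGMP gene was Nppc, which encodes the C-type natriuretic peptide, without a read in the BECs of both controls and at 0.985–3.34 CPM in those of the 5 mutants (adjusted p = 0.0259).

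Collecting LECs, named after the vessels that carry lymph onward from the capillaries, were compared with the other LECs of the same mouse. Nos3 was the only 1 of the 9 genes called, higher in collecting LECs, where 2.56% of 19007 genes were called and 0.926% were called higher. The class is a cut on a pair of genes, and a check by 4 further genes was mixed. Foxp2, the gene for a transcription factor of collecting vessels, was at 229 and 237 CPM in the collecting LECs of the controls and 106 and 136 CPM in their other LECs, and at 63.4–275 against 15.9–58.7 CPM in mutants. The list of 4 genes checked (Foxp2, Cldn11, Ackr4 and Pdpn) summed to like levels in both, 657–884 and 769–895 CPM in controls, so the cells are called collecting LECs by their rule. Cldn11 marks valve LECs in the paper and Podoplanin was used for the sort, so this sum does not single out collecting vessels.

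Nos3 was at 584 and 161 CPM in the collecting LECs of controls 1 and 2 and at 251, 321, 335, 344 and 516 CPM in those of mutants 1–5. The other LECs held 109.9 and 167 CPM in the controls and 147, 159, 184, 120.1 and 316 CPM in the mutants. Collecting LECs were higher in 6 of 7 mice, with control 2 the exception. The log2 difference was 1.10 ± 0.24 (adjusted p = 0.0402), beside a median of -0.39 over all genes tested. Per kilobase the collecting LECs held 86.8 ± 35.4 CPM of Nos3, close to the 87.0 ± 11.3 of BECs. Among all LECs 1048 cells carried at least 300 CPM of the BEC gate genes. How these cells fell between collecting and other LECs is not given. The call held in 7 of 14 alternatives. It was lost when any 1 mutant was left out (adjusted p = 0.0684, 0.0871, 0.0892, 0.0952 and 0.0838 without mutants 1–5), with first plates only (0.126) and with no filter on low counts (0.0538).

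Edn1 was higher in the collecting LECs of 7 of 7 mice, at 15.1 and 7.01 CPM in the controls and 8.20, 46.0, 54.9, 7.97 and 22.8 CPM in the mutants, against 8.001 and 3.34 CPM and 3.26, 0.312, 4.17, 0.628 and 2.84 CPM in the other LECs. Mutants 2, 3 and 5 stood above the rest. The log2 difference of 2.88 ± 0.84 had an adjusted p of 0.109 in edgeR and 0.000194 in DESeq2. Even so, the collecting LECs stayed below every BEC sum of Edn1. Ddah1 was likewise higher in 7 of 7 mice, by 0.61 ± 0.22 (adjusted p = 0.184). Gucy1b1 was lower in 5 of 7 mice (-0.66 ± 0.30, adjusted p = 0.269), and Gucy1a1 (-0.08 ± 0.35), Ednrb (-0.02 ± 0.70) and Ece1 (-0.04 ± 0.07) had adjusted p-values of 0.841 and above. Ddah2 was lower in 5 of 7 mice (-0.37 ± 0.18, adjusted p = 0.332), and Pde5a differed by 0.02 ± 0.61 (adjusted p = 0.994).

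Between genotypes, the collecting LECs showed no called gene at all. Of 13721 genes tested 0 were called by edgeR (0%), 1020 had an unadjusted p under 0.05, and DESeq2 called 323. The gene of the 8 tested members with the widest gap was Ednrb, at 1.69 and 31.5 CPM in the controls and 60.3, 90.4, 136, 212 and 133 CPM in mutants 1–5. The groups did not overlap, and the ratio of means was 7.63. The log2 fold change was 2.99 ± 0.98, with an adjusted p of 0.544 in edgeR and 0.0169 in DESeq2. The control sums rest on 28 and 19 cells. Collecting LECs made up 10.9–15.3% of LECs in controls and 3.54–20.7% in mutants. The paper describes a mutant LEC cluster of mixed identity that expressed both Lyve1 and Mmrn2. Whether the rule took the same kind of cells in both genotypes was not tested, for Ednrb or for the genes below.

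In the other LECs of the same mice Ednrb was at 55.1 and 114 CPM in the controls and 50.9, 55.1, 64.8, 49.1 and 134 CPM in the mutants. There the genotypes overlapped. The difference of the genotype effects of collecting and other LECs was 4.11 ± 0.93 on the log2 scale (edgeR adjusted p = 0.599, DESeq2 adjusted p = 0.000498), in a test that called 0 of 19007 genes in edgeR (0%), with 1009 at an unadjusted p under 0.05 and 344 called by DESeq2. Ddah2 in collecting LECs was at 65.0 and 58.2 CPM in the controls and 233, 117, 151.8, 85.1 and 165 CPM in the mutants, without overlap (2.44-fold, log2 fold change 1.31 ± 0.44, adjusted p = 0.556). Ece1 also did not overlap, with 1694 and 1387 CPM in the controls and 1955, 1874, 1789, 1823 and 2163 CPM in the mutants, a 1.25-fold ratio of means (log2 fold change 0.34 ± 0.16, adjusted p = 0.682). The log2 fold changes of the other tested genes were -0.08 ± 0.45 for Nos3, 0.11 ± 0.50 for Ddah1, 1.27 ± 0.91 for Gucy1a1, 0.51 ± 0.79 for Gucy1b1 and 1.36 ± 1.12 for Edn1, with edgeR adjusted p-values of 0.784 to 0.988. For the difference of the genotype effects, collecting minus other LECs, they were -0.23 ± 0.56 for Nos3, 0.19 ± 0.50 for Ddah1, 0.56 ± 0.38 for Ddah2, 1.48 ± 0.65 for Gucy1a1 and 0.83 ± 0.63 for Gucy1b1. Those of Pde5a, Edn1 and Ece1 were 0.06 ± 1.4, 2.62 ± 1.54 and 0.31 ± 0.12, and the edgeR adjusted p of these 8 genes was 0.899 or more.

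**Figure D3:**
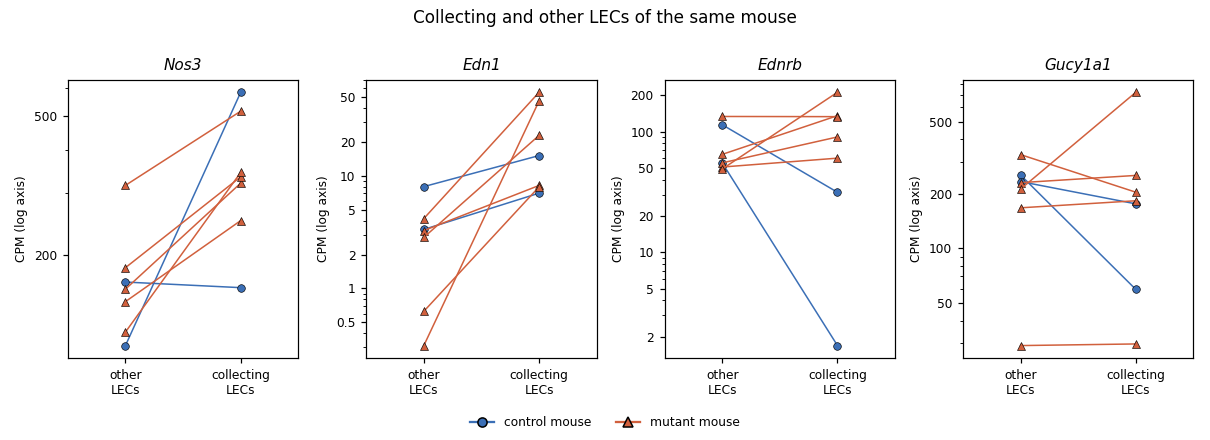
Nos3, Edn1, Ednrb and Gucy1a1 (CPM, log axis) in the other LECs and the collecting LECs of each mouse, joined by a line per mouse, circles for control and triangles for mutant mice. The Nos3 line rises in 6 of 7 mice, the Edn1 line in 7 of 7, and Ednrb in collecting LECs lies at 1.69–31.5 CPM in controls and 60.3–212 CPM in mutants.

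In the collecting comparison 1 of 19 NO genes was called, Cav1, which was higher in collecting LECs by 0.47 on the log2 scale (adjusted p = 0.00222), and none of 17 cGMP and 10 endothelin genes was, beside 2.56% of all genes tested. No pathway gene was called between genotypes in collecting LECs, out of 18, 10 and 6 tested, or for the difference of the genotype effects, out of 19, 17 and 10.

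BECs were placed in the blood vessel tree by which of 3 lists of 5 genes had the largest sum in a cell. The lists were Gja5, Gja4, Sox17, Bmx and Hey1 for arteries, Ackr1, Selp, Sele, Vwf and Lrg1 for veins, and Gpihbp1, Cd36, Car4, Rgcc and Fabp4 for capillaries. There were 111 arterial-marker, 615 venous-marker and 816 capillary-marker BECs. These are ranges of a score and not cell types. Edn1 was higher in arterial-marker BECs than in the other BECs of the same mouse, where 3.08% of 18622 genes were called and 0.736% were called higher. Ece1 was higher and Ednrb lower in venous-marker BECs, where 3.41% of 19990 genes were called, 1.46% higher and 1.95% lower.

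Edn1 in arterial-marker BECs was at 170.3 and 247 CPM in the controls and 288, 236, 200.1, 204 and 960.0 CPM in mutants 1–5. All 7 sums were higher than in the other BECs of their mouse, and mutant 5 stood far above the rest. The log2 difference was 1.36 ± 0.26 (adjusted p = 0.0182), beside a median of -0.68 over all genes tested, and the call held in 10 of 15 alternatives. It was lost without mutant 1, 2, 4 or 5 or without control 2 (adjusted p = 0.0595, 0.0575, 0.051, 0.0593 and 0.0588). The arterial sums rest on 10–22 cells a mouse.

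Gucy1a1 was also higher in the arterial-marker BECs of 7 of 7 mice, at 49.7 and 219 CPM in the controls and 69.6, 190.1, 344, 80.0 and 227 CPM in the mutants (2.05 ± 0.52, adjusted p = 0.0543). Control 2 and mutants 2, 3 and 5 lay above the other 3 mice. The 5 mural markers summed to 146–571 CPM in the arterial-marker BECs of controls and 2.44–2217 CPM in those of mutants, with up to 3 of the 5 genes at 0 in a mouse. Without cells richer in markers of another cell type they summed to 28.8–82.2 and 2.44–119 CPM, and Gucy1a1 was then at 32.4 and 243 CPM in the controls and 69.6, 190.1, 2.84, 105 and 35.3 CPM in the mutants (log2 difference 1.52 ± 0.78, adjusted p = 0.281). Mutant 3 had gone from the highest sum to the lowest. The arterial sum of mutant 3 held Pde5a at 80.3 CPM, while the arterial sums of the other 6 mice held at most 0.495 CPM. Without such cells mutant 3 was at 0 CPM and the highest mouse, mutant 5, at 0.576 CPM. Ddah1 was lower in arterial-marker BECs in 6 of 7 mice (-2.23 ± 0.72, adjusted p = 0.112), mutant 1 being the exception at 149 CPM. The other log2 differences were 0.34 ± 0.19 for Nos3, 0.19 ± 0.25 for Ddah2, 0.65 ± 1.08 for Gucy1b1, -2.84 ± 1.62 for Pde5a, 0.36 ± 0.16 for Ece1 and -1.03 ± 0.65 for Ednrb, with edgeR adjusted p-values of 0.220 to 0.800.

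In venous-marker BECs Ece1 was at 1453 and 1228 CPM in the controls and 1268, 1472, 1302, 1238 and 1660.2 CPM in mutants 1–5, higher than in the other BECs of all 7 mice. The genotypes overlapped. The log2 difference was 0.43 ± 0.08 (adjusted p = 0.014), and the call held in 14 of 15 alternatives. Ednrb, given above for this zone, was lower in venous-marker BECs of 7 of 7 mice (-2.64 ± 0.49, adjusted p = 0.0189). That call held in 11 of 15 alternatives and was lost without mutant 1, without mutant 2 or without control 1 (adjusted p = 0.0629, 0.06 and 0.0505). Ddah1 was higher in venous-marker BECs of 7 of 7 mice, by 1.05 ± 0.25 (adjusted p = 0.0539). The other log2 differences in this zone were -0.19 ± 0.10 for Nos3, -0.58 ± 0.21 for Ddah2, -0.53 ± 0.55 for Gucy1a1, -1.35 ± 0.70 for Gucy1b1, -2.49 ± 0.95 for Pde5a and 0.56 ± 0.24 for Edn1, with edgeR adjusted p-values of 0.212 to 0.780.

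Capillary-marker cells made up 64.4–76.8% of BECs in controls and 38.5–54.5% in mutants, and the part of this make-up in the Ednrb sums over all BECs was not tested. In arterial-marker BECs Ednrb was at 13.9 and 2.24 CPM in the controls and 95.5, 318, 49.4, 41.1 and 68.2 CPM in the mutants, with no overlap (14.2-fold as the ratio of means, from 10–22 cells a mouse). Mutant means were thus above control means in all 3 zones. Nos3 and Ddah2 also did not overlap between genotypes in venous-marker BECs, with no share of all genes to set this beside. Nos3 was at 301 and 245 CPM in the controls and 303, 378, 347, 358 and 342 CPM in the mutants (1.27-fold), though without cells richer in markers of another cell type it did overlap (256–357 and 304–378 CPM), and Ddah2 at 39.0 and 108 CPM and at 158, 183, 133, 136 and 129 CPM (2.01-fold, log2 fold change 1.05, adjusted p = 0.16).

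**Figure D4:**
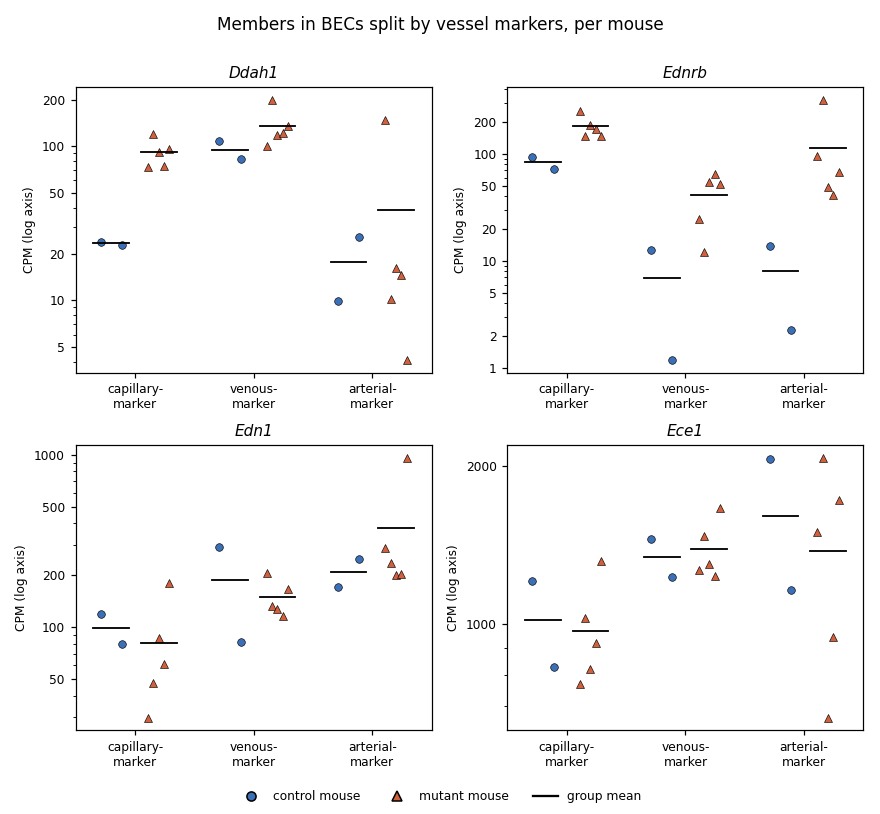
Ddah1, Ednrb, Edn1 and Ece1 (CPM, log axis) in capillary-marker, venous-marker and arterial-marker BECs of each mouse, circles for control and triangles for mutant mice, with a line at each group mean. Ednrb lies at 1.19–64.3 CPM in venous-marker and 72.3–251 CPM in capillary-marker BECs, and Ddah1 in capillary-marker BECs is at 23.0–23.9 CPM in controls and 73.5–121 CPM in mutants.

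Of the pathway lists, 1 cGMP gene of 16 was called in the arterial comparison, Npr1, lower in arterial-marker BECs (log2 difference -1.26, adjusted p = 0.0178), with none of 21 NO and 8 endothelin genes, beside 3.08% of all genes tested. In the venous comparison 3 of 21 NO genes were called, Cav1 (-0.73), Nos2 (-4.34) and Cyb5r3 (0.38), and 4 of 17 cGMP genes, of which the 3 of lowest adjusted p were Npr1 (0.55), Pde9a (1.52) and Mrvi1 (-5.96). None of 9 endothelin genes was called there, beside 3.41% of all genes tested.

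As a description of which genes varied alongside the members, log2 CPM was correlated over the 21 sums of collecting LECs, other LECs and BECs of the 7 mice, among 9489 genes. These sums share mice, plates and classes, and most of the variation is that between LECs and BECs. Gucy1a1 was closest to Gucy1b1 (r = 0.910), and Gucy1b1 to Gypc (0.917) and then Gucy1a1. Nos3 was closest to Fli1, an ETS transcription factor of endothelium (0.909), Edn1 to Il4ra (0.929), Fabp5 (0.928) and Tspan7 (0.925), Ece1 to Stt3b (0.945) and Ednrb to Pcyt2 (0.906). Ddah2 was closest to Nkiras2 (0.887), Ddah1 to Tmem252 (0.806) and Pde5a to Tpm1 (0.791), an actin-binding protein abundant in muscle.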

How the data were processed

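Single endothelial cells from the ear skin of 7 mice (5 mutant, 2 control) were analysed on 9 plates. The authors deposited raw read counts per gene and cell, unfiltered, and a file of exon lengths. Per the submitters' processing notes, TopHat2 2.1.1, SAMtools 0.1.18, featureCounts of Subread, R 3.5.1 and Seurat 3.1.1 were used with GRCm38. Duplicate reads had been removed. Reads carry no molecular barcodes, so counting error understates the true error. Smart-Seq2 does not mark strand, so reads of overlapping genes cannot be told apart. Symbols were matched for 46005 of 46517 Ensembl IDs (98.9%). The 92 spike-ins, 0.447% of reads, were kept out of all totals.

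The limits for a cell were 200 genes, 50000 reads and a mitochondrial share of no more than 10%. Cells in neither class numbered 65. No doublet caller was run, and 1201 cells carried at least 300 CPM of both gates, most of them LECs (1048). Reads were summed per mouse and class (at least 5 cells), both plates of mutants 3 and 5 together. Sums were tested with edgeR 4.0.16 in R 4.3.3 (filterByExpr, TMM, quasi-likelihood F test), with the mouse as a block wherever 2 classes of the same mice were compared. Adjusted p-values are Benjamini-Hochberg over all genes tested, with calls under 0.05. The SE given with an edgeR log2 value was derived as its absolute size divided by the square root of the F statistic. CPM are of plain sums. Tables were made with Python 3.11.15 and pandas 2.3.3. The scripts were tested on simulated data.

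All 9 genes were tested in every comparison, apart from Pde5a in collecting LECs between genotypes, and are given with up to 3 called genes of lowest adjusted p from each of 3 pathway lists (23, 22 and 12 genes) and the most similar genes by Pearson r. Prmt1 and Pde2a were listed but had no match in the table. The members and lists were chosen with earlier results of these data known. Alternatives were DESeq2 1.42.0, its size factors in edgeR, no filter, cells thinned to 50000 reads, no cells richer in markers of another type, first plates only, a 300 CPM limit for BECs, no cycling cells, the plate number series as a covariate, a replicate block or none, and each mouse left out. The replicate block joined same-numbered mice in comparisons between genotypes. No replicate block means that the mouse block was dropped where classes of the same mice were compared. Sums of venous-marker BECs, capillary-marker BECs and other LECs alone were chosen after seeing the data. Replicates are separate mice. Replicate numbers are names and pair no samples across genotypes: same-numbered samples deviated from their group means with correlations of -0.0428 to 0.0677.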

Additional observations from a re-analysis of the deposited data

Results flagged for a closer look

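In groups of 5 mutant mice, 9 of 54 gene and class combinations had a mouse far from the other 4 by Dixon's test, which by chance marks about 1 in 20 groups. In LECs this was Ednrb in mutant 5, at 134 CPM with the next mouse at 72.4 CPM. In BECs it was Ddah1 in mutant 2, at 156 CPM with the next at 108 CPM. Without mutant 2 the Ddah1 change in BECs was 1.44 (edgeR adjusted p = 0.0355).

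Of the zones, 5 cases fell in arterial-marker BECs, whose sums rest on 10–22 cells a mouse. Gucy1b1 was at 153 CPM in mutant 3 (next 38.9), Edn1 at 960.0 CPM in mutant 5 (next 288), Ednrb at 318 CPM in mutant 2 (next 95.5), Ddah1 at 149 CPM in mutant 1 (next 16.3) and Pde5a at 80.3 CPM in mutant 3 (next 0.495). Without cells richer in markers of another cell type Pde5a in mutant 3 was at 0 CPM and its highest mutant at 0.576 CPM, while Gucy1b1 in mutant 3 was at 108 CPM, Edn1 in mutant 5 at 1077 CPM, and Ednrb in mutant 2 and Ddah1 in mutant 1 as before. In capillary-marker BECs Gucy1a1 was at 86.9 CPM in mutant 1 (next 21.1), and in venous-marker BECs Pde5a was at 1.82 CPM in mutant 5 (next 0.440). Without such cells Gucy1a1 was at 11.9 CPM in capillary-marker BECs of mutant 1, still the highest mutant, and Pde5a at 0.280 CPM in venous-marker BECs of mutant 5, where the highest mutant was at 0.447 CPM.

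For Ddah1 the step from LECs to BECs went down in both control mice (mean log2 change -0.78) and up in all 5 mutants (0.94), a difference of 1.72. The direct test of that difference did not pass in edgeR (adjusted p = 0.129) and passed in DESeq2 (adjusted p = 0.000407). With each mouse left out in turn the edgeR adjusted p ran from 0.170 to 0.325.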

How the results depend on the processing

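Over 9 comparisons, 1235 values of single genes were recomputed, of which 1084 kept their direction and side of the threshold, 44 lost it, 15 gained it and 92 changed sign (38 of these with a mouse left out). None of the 187 values of the 12 called results changed sign, and 44 lost the call. The causes were not tested. The depth and the 2 control mice limit what these comparisons can show.

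For BECs between genotypes the 2 calls became 1 with no filter, without cells richer in other markers, first plates only, the 300 CPM limit, no cycling cells and capillary-marker BECs only, and 0 with thinned cells, the plate series, the replicate block and venous-marker BECs only. Leaving out a mouse gave 0 to 1. For LECs the 0 calls became 1 with DESeq2 and 1 with the plate series (Gucy1a1, -2.90, adjusted p = 0.0327). DESeq2 gave 1 call for LEC minus BEC effects, for collecting LECs between genotypes and for the collecting minus other LEC effect. For collecting against other LECs the 1 call became 3 (DESeq2), 0 (no filter) and 0 (first plates), and 0 to 1 with a mouse left out. For arterial-marker BECs it became 3 (DESeq2), 2 (DESeq2 size factors), 2 (no replicate block) and 0 to 1, and for venous-marker BECs the 2 became 4 (DESeq2), 0 (no replicate block) and 1 to 2.

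Genes called over the whole table by edgeR, by DESeq2 and by edgeR's lowest alternative were 546, 2490 and 4 (replicate block) in LECs, 364, 2163 and 32 (replicate block) in BECs, 40, 1163 and 0 for LEC minus BEC effects, 4847, 6659 and 3631 for BECs against LECs, 487, 2374 and 146 for collecting LECs, 573, 2978 and 175 for arterial-marker and 681, 2019 and 367 for venous-marker BECs. The highest edgeR counts were 86 for LEC minus BEC effects and 1 for collecting LECs between genotypes (0 in the test as reported, 323 in DESeq2). The share of calls that were higher, 70.9% in LECs, 72.8% in BECs, 12.5% for LEC minus BEC effects, 36.1% for collecting and 23.9% for arterial-marker cells, ran over the alternatives from 63.0 to 100%, 58.4 to 86.5%, 12.5 to 55.6%, 33.7 to 59.1% and 17.1 to 43.3%.

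Sign changes were of small values for the most part (log2). LECs between genotypes: thinned cells gave Gucy1b1 0.10, Gucy1a1 0.037, Edn1 0.065 and Ddah1 0.0079, no cycling cells Gucy1b1 0.22, Gucy1a1 0.086 and Ddah1 0.053, the replicate block Gucy1b1 0.22, Gucy1a1 0.069, Ddah1 0.0066 and Ednrb -0.28, no filter Gucy1b1 0.064, no cells richer in other markers Ednrb -0.047 and other LECs only Ednrb -0.20. BECs between genotypes: no cells richer in other markers gave Nos3 -0.15 and Ece1 -0.019, the plate series Nos3 -0.00050, Gucy1a1 -0.67 and Gucy1b1 -0.62, the replicate block Pde5a -0.23, capillary-marker BECs only Nos3 -0.053, Ece1 -0.042, Gucy1a1 -0.55 and Edn1 -0.28, and venous-marker BECs only Edn1 -0.29. LEC minus BEC effects: thinned cells gave Nos3 -0.072 and Pde5a 0.50.

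Collecting against other LECs: DESeq2 gave Gucy1a1 0.0015, Ednrb 0.056 and Ece1 0.046, its size factors 0.0020, 0.067 and 0.046, no replicate block 0.27, 0.49 and 0.025, thinned cells Ednrb 0.045, no cells richer in other markers Ednrb 0.0499 and Ece1 0.0077, first plates Ednrb 0.28, Ece1 0.043 and Pde5a -0.082, and no filter Pde5a -0.016. Collecting LECs between genotypes: the plate series gave Nos3 0.51, Gucy1a1 -1.92, Gucy1b1 -2.10 and Ddah1 -1.02, the replicate block Ddah1 -0.12 and no cells richer in other markers Nos3 0.082. First plates gave Pde5a -0.047 for the collecting minus other LEC effect and Gucy1b1 -0.15 for arterial-marker BECs, where the 300 CPM limit gave Gucy1b1 -0.14 and no replicate block Pde5a 2.91. Venous-marker BECs without cells richer in other markers gave Gucy1a1 0.90.

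With each mouse left out, the ranges that crossed 0 were, in LECs between genotypes, Gucy1a1 -0.32 to 0.17, Gucy1b1 -0.29 to 0.24, Edn1 -0.82 to 0.55, Ednrb -0.32 to 0.70, Ece1 -0.19 to 0.38, Ddah1 -0.30 to 0.084 and Pde5a -1.60 to 0.19. In BECs they were Nos3 -0.18 to 0.36, Gucy1b1 -0.037 to 0.66, Edn1 -0.24 to 0.60, Ece1 -0.12 to 0.49 and Pde5a -0.31 to 3.11, and for LEC minus BEC effects Nos3 -0.056 to 0.29 and Gucy1b1 -0.92 to 0.0091. For collecting against other LECs they were Gucy1a1 -0.38 to 0.23, Ednrb -0.42 to 0.50, Ece1 -0.054 to 0.026 and Pde5a -0.12 to 0.11, for collecting LECs between genotypes Nos3 -0.75 to 1.17, Gucy1b1 -0.19 to 1.81 and Ddah1 -0.057 to 0.28, and for the collecting minus other LEC effect Nos3 -1.45 to 1.03, Gucy1b1 -0.0050 to 1.73, Ddah1 -0.016 to 0.45 and Pde5a -0.13 to 0.21.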
